A study of Mus musculus with 13 samples.

Results

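Every protein needs amino acids and the enzymes that load them onto transfer RNA, and 48 mouse genes that do or govern this work were followed here in leukemia cells given A-485. The 48 genes, matched by symbol among the 24328 genes of each deposited table, were listed by name, with earlier results of these data known. They were 20 genes of cytosolic aminoacyl-tRNA synthetases and 28 genes tied to ATF4. Among the 28 were 8 genes labelled pathway regulators, which take in Atf4 itself and targets such as Trib3. The others cover asparagine, serine and proline synthesis, folate enzymes, amino acid transporters and the lipoprotein receptor gene Vldlr. In the A-485 time course 46 of the 48 genes had enough counts to be tested, and Cth and Vldlr did not.

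Aminoacyl-tRNA synthetases attach each amino acid to its transfer RNA and so feed the ribosome. When amino acids run short or proteins misfold, kinases phosphorylate the initiation factor eIF2, most translation slows, and translation of the transcription factor ATF4 goes up. ATF4 with C/EBP partners then switches on genes that make, import and charge amino acids, many synthetase genes among them.

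RNA of mouse bone marrow cells was sequenced from 13 libraries. Leukemia stem cells (LSC) carrying the MLL-AF10 fusion were kept with A-485, which blocks the histone acetyltransferases p300 and CBP, for 8, 24, 48 and 72 h, and untreated LSC served as 0 h, with 2 libraries at each time. Mature leukemia cells (mAML), LSC and wild-type granulocyte-monocyte progenitors (GMP) had 1 library each. The labels give the LSC and mAML as tumor and the GMP as wild type. Age, sex, the dose of A-485 and the number of clones or animals are not given in the sources used here. No vehicle control accompanied the later times, so time in culture and A-485 cannot be told apart. Whether the pair of libraries at each time came from separate cultures is not stated, and the p-values then measure only the spread between these libraries, which may be technical.

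The totals ran from 6467762 to 9763278 counts in the time course, and were 47257637 in mAML, 40468524 in LSC and 24532513 in GMP. MLL-fusion targets (Hoxa9, Hoxa10, Meis1 and Pbx3) summed to 149 and 192 TPM, a level scaled for transcript length and depth, at 0 h, 132 in mAML, 198 in LSC and 13.1 in GMP. Markers of granulocyte-monocyte progenitors and their primary granules summed to 388 and 337 TPM at 72 h, against 10579 and 10085 TPM at 0 h. Mature myeloid markers summed to 446 and 396 TPM at 72 h, against 5542 and 1578 TPM at 0 h, where S100a8 and S100a9 held most of the sum. Within that list Itgam was higher, with 254 and 257 TPM at 72 h, against 211 and 185 TPM at 0 h, and so was Cd68, with 74.8 and 72.8 TPM at 72 h, against 36.5 and 37.4 TPM at 0 h. Nuclear Malat1 was at 745 and 819 TPM at 72 h, against 53.3 and 54.4 TPM at 0 h, and the effective length of the transcript behind an average read was 3530 and 3423 nt at 72 h, against 2861 and 2848 nt at 0 h. The part of these shifts in the results below was not tested. In bulk RNA, fewer cells of a type and less RNA per cell cannot be told apart.

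ATF4 binds the C/EBP-ATF element, read here as TGATGNAA on either strand, and the promoters of 36 of the 48 genes could be searched for it. RefSeq promoter windows of GRCm38.p6, 250 bases before to 50 bases from each transcript start, were used, and this build differs from the mm9 of the deposited tables. The genes with no window were Cars, Hars, Lars, Nars, Rars, Vars, Wars, Eif4ebp1, Cth, Slc7a5, Slc1a5 and Slc38a1. The element was found in 12 of 36 genes (33.3%) and in 1219 of all 27025 genes with a window (4.51%). Genes tied to ATF4 were listed as such, so a share above that of all genes follows in part from the choice of genes. The 12 genes were Aars, Gars, Iars, Tars, Yars, Trib3, Chac1, Nupr1, Asns, Pycr1, Slc7a11 and Vldlr. The E-box CACGTG, a motif of MYC and related factors, was in 6 of 36 genes (16.7%) and in 2187 of the 27025 genes (8.09%). These were Aars, Farsb, Iars, Tars, Nupr1 and Aldh18a1. A match to either motif cannot contain the other. A match is a description of letters, not of binding. The stretches below come from 8 genes whose element lies upstream of the start, shown because they are the letters read as the element. Each runs 5′ to 3′ on the gene's strand, with the element in capitals.

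Asns (chr6:7693210-7693258, minus strand, 23 bases upstream): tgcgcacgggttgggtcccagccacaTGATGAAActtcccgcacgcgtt
Pycr1 (chr11:120643818-120643877, minus strand, 103 bases upstream): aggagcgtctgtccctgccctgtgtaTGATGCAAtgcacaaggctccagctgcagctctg
Slc7a11 (chr3:50443646-50443705, minus strand, 66 bases upstream): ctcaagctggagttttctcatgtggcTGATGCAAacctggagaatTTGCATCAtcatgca
Chac1 (chr2:119351023-119351082, plus strand, 193 bases upstream): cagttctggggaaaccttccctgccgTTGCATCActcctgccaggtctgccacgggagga
Nupr1 (chr7:126625547-126625606, minus strand, 110 bases upstream): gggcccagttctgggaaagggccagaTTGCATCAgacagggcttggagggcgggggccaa
Aars (chr8:111033704-111033763, plus strand, 112 bases upstream): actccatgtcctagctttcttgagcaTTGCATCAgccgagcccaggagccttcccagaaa
Gars (chr6:55037945-55038000, plus strand, 30 bases upstream): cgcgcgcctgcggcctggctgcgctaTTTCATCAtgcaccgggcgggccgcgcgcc
Tars (chr15:11399659-11399699, minus strand, 15 bases upstream): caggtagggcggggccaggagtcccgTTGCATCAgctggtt

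Slc7a11 held the element on both strands within this stretch. In Chac1, Nupr1, Aars, Gars and Tars it read in the reverse direction, and in Asns and Pycr1 in the forward direction.

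Under A-485 the amino acid genes fell broadly, and the falls were deepest at 48 h. A gene was called at an adjusted p under 0.05 in the quasi-likelihood test of edgeR, with Benjamini-Hochberg adjustment over all 11119 genes tested, and every adjusted p of the time course below is of this kind. Of the 46 genes tested, 24 were lower and 0 higher at 8 h against 0 h, where 21.0% of all genes tested were called lower and 17.9% higher. At 24 h 36 were lower and 1 higher, against 27.1% and 23.2% of all genes. At 48 h 38 were lower and 3 higher, against 30.5% and 25.2%. At 72 h 34 were lower and 3 higher, against 29.4% and 25.9%. The 4 comparisons share the 0 h libraries. Over the 4 treated times, 42 of the 46 were called at least once against 0 h, where 70.6% of all genes tested were, and 22 were lower at all 4 times, where 14.0% of all genes were. The joint test of all treated times called 41, where it called 59.8% of all genes tested.

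The median log2 change of the 46 genes was -0.69 at 8 h, -1.24 at 24 h, -1.32 at 48 h and -0.80 at 72 h. The median of all genes tested lay between -0.042 and 0.015 at these times. The mean level was lowest at 48 h in 30 of the 46 genes (65.2%), against 21.0% of all genes tested, and highest at 0 h in 37, against 35.1% of all genes. These medians depend on scaling: between treated times and 0 h the median of all genes moved to between 0.28 and 0.35 with library size alone, and to between 0.42 and 0.64 on log2(TPM + 1). Library size alone shifts all genes by nearly the same amount, so the median of the 46 genes relative to all genes could hardly move there. It was -1.28 at 48 h and -0.79 at 72 h both in the edgeR fit and in that setting. On log2(TPM + 1) it was -1.19 at 48 h and -0.74 at 72 h.

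**Figure D1:**
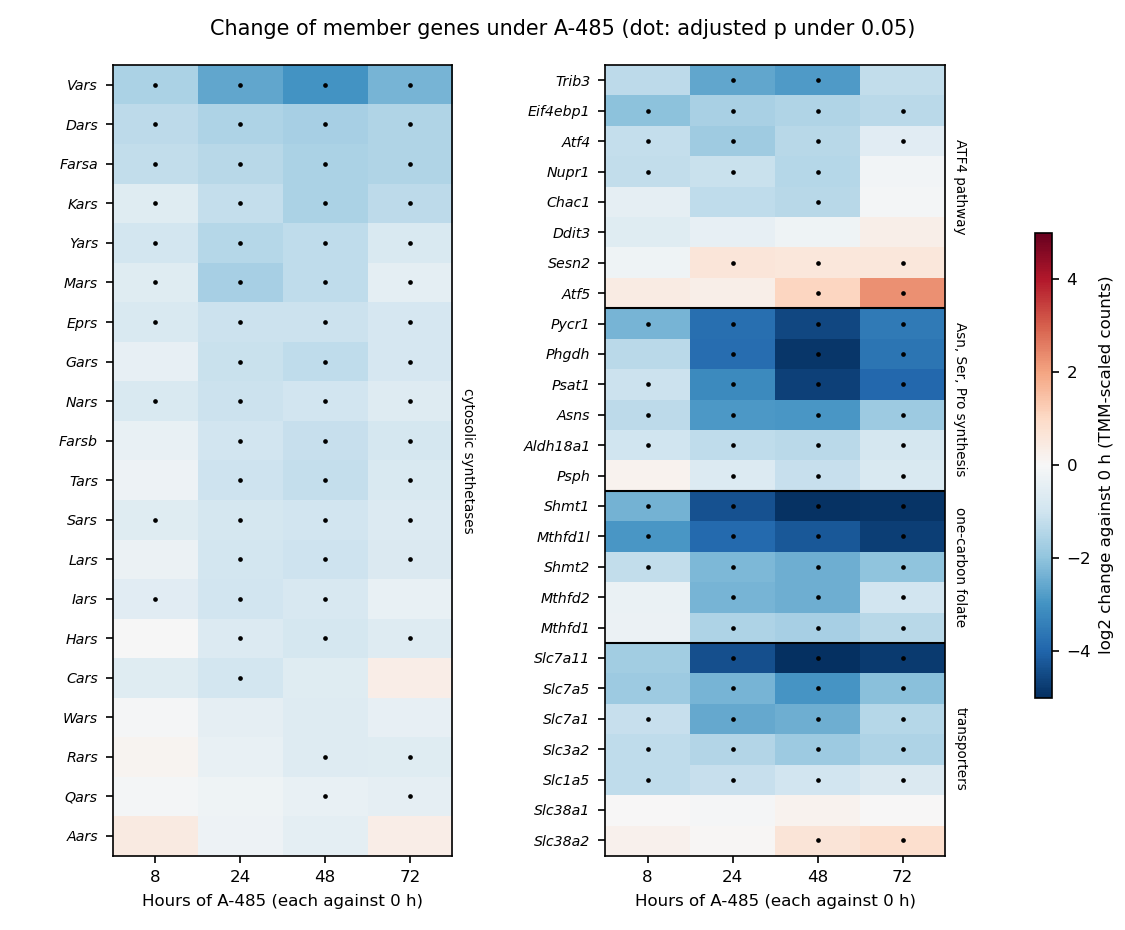
Log2 change of TMM-scaled counts against 0 h for the 46 genes tested, with hours of A-485 across and genes down, colour limited at 5 in either direction and a dot where the adjusted p was under 0.05. Blue dominates both panels from 24 h on, and the few red cells with a dot belong to Atf5, Sesn2 and Slc38a2.

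The pair of libraries at 72 h differed in these genes. Replicate 1 was above replicate 2 in 40 of 46 genes at 72 h, against 17, 25, 21 and 18 of 46 at 0, 8, 24 and 48 h. At 72 h the gap had a median log2 ratio of 0.26, against 0.00315 over all genes tested. It was at least 1.5-fold higher in 12 genes and at least 1.5-fold lower in 0, where 5.98% of all genes were higher and 8.14% lower by that much. Phgdh had the widest gap, with a log2 ratio of 2.09, then Slc7a11 with 1.46, Chac1 with 1.21, Nupr1 and Psat1 with 1.11 each and Slc7a5 with 1.00. All 11 tested genes with the C/EBP-ATF element were higher in replicate 1, with a median of 0.68, as were 20 of 24 with a window and no element, with a median of 0.17. Of all genes tested, 5603 of 11119 were higher in replicate 1. Against 0 h, genes with and without the element had medians of -0.91 and -0.69 at 8 h and -1.28 and -1.43 at 24 h. The medians were -1.39 and -1.48 at 48 h, and -0.77 and -0.92 at 72 h. The difference between genes with and without the element was not tested. At 0 h, replicate 2 was above replicate 1 in Ddit3 and Trib3, as given with these genes below. Results at 72 h are therefore given with and without replicate 1 for part of the genes. Without it 34 genes were lower and 1 higher than at 0 h, with a median of -1.0. Without replicate 2 instead, 29 were lower and 3 higher, with a median of -0.66.

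**Figure D2:**
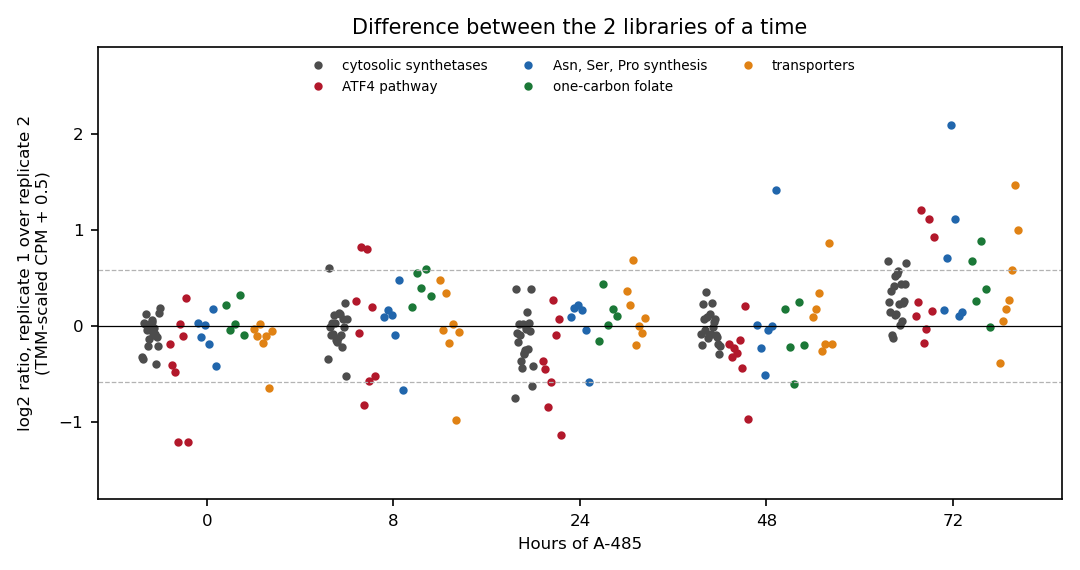
Log2 ratio of replicate 1 over replicate 2 of each time, from TMM-scaled CPM plus 0.5, for each of the 46 genes by role; dashed lines mark 1.5-fold. At 72 h 40 of 46 points lie above 0, and Phgdh is at 2.09.

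The genes labelled pathway regulators went in both directions. Of the 8 regulators, 3, 4, 5 and 2 were lower at 8, 24, 48 and 72 h, and 0, 1, 2 and 2 were higher. Their median was -0.90, -1.20, -1.39 and -0.11 at these times.

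Atf4 itself, the transcription factor gene, had 448 and 511 CPM (counts scaled to TMM-adjusted library size) at 0 h, 230 and 193 at 8 h, 122 and 157 at 24 h, 172 and 195 at 48 h, and 335 and 312 at 72 h. Both libraries of every treated time lay below both libraries of 0 h, the 24 h pair lowest. Atf4 fell by 1.18 ± 0.15 on the log2 scale at 8 h (SE, adjusted p = 0.000612), by 1.78 ± 0.15 at 24 h (adjusted p = 6.36e-05) and by 1.39 ± 0.15 at 48 h (adjusted p = 0.000118). At 72 h it fell by 0.57 ± 0.15 (adjusted p = 0.0109), a call that leaving out either 0 h replicate 2 or 72 h replicate 2 ended (adjusted p = 0.0883 and 0.065), and the value was 0.11 on log2(TPM + 1). Atf4 was higher at 72 h than at 8 h by 0.61 ± 0.15 (adjusted p = 0.0137), but not without 8 h replicate 2 (0.0754) or 72 h replicate 1 (0.0661).

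Atf5, whose product is a relative of ATF4, was the clearest rise. It had 46.7 and 62.1 CPM at 0 h, 70.9 and 74.7 at 8 h, 56.1 and 76.7 at 24 h, 103 and 129 at 48 h, and 289 and 243 at 72 h. The libraries of 24 h overlapped those of 0 h, and those of 48 and 72 h lay above them. Atf5 rose by a log2 change of 1.09 ± 0.20 at 48 h (adjusted p = 0.00182) and 2.29 ± 0.20 at 72 h (adjusted p = 4.45e-05), a 4.89-fold change. Without 72 h replicate 1 the value was 2.16 (adjusted p = 0.000522).

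Sesn2, the leucine sensor sestrin 2 that restrains mTORC1, had 83.6 and 68.1 CPM at 0 h, 70.3 and 61.1 at 8 h, 117 and 111 at 24 h, 122 and 105 at 48 h, and 119 and 107 at 72 h. From 24 h on every library lay above both of 0 h. The rise was 0.59 ± 0.14 at 24 h (adjusted p = 0.0082), 0.58 ± 0.14 at 48 h (adjusted p = 0.00743) and 0.57 ± 0.14 at 72 h (adjusted p = 0.00818). Leaving out 48 h replicate 1 ended the 48 h call (adjusted p = 0.0622), and leaving out 72 h replicate 1 ended the 72 h call (0.0518).

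Eif4ebp1, which encodes the translation repressor 4E-BP1, was lowest at the first time point. It had 187 and 184 CPM at 0 h, 57.5 and 32.9 at 8 h, 65.9 and 54.7 at 24 h, 62.5 and 69.5 at 48 h, and 71.3 and 72.7 at 72 h. No treated library reached the 0 h libraries. It fell by 2.04 ± 0.23 at 8 h (adjusted p = 0.000344) and by 1.37 ± 0.22 at 72 h (adjusted p = 0.00109).

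Trib3, a pseudokinase gene that ATF4 induces and whose product restrains it, had 21.5 and 50.3 CPM at 0 h, 11.8 and 17.2 at 8 h, 3.56 and 8.42 at 24 h, 3.25 and 6.82 at 48 h, and 19.9 and 10.3 at 72 h. The 0 h libraries differed from each other more than 2-fold. Trib3 changed by -2.58 ± 0.59 at 24 h (adjusted p = 0.00691), a call that ended without 0 h replicate 2 (-1.81, adjusted p = 0.0559), and by -2.83 ± 0.61 at 48 h (adjusted p = 0.00413). Without 24 h replicate 2 the 24 h value was -3.32, and the 48 h value was -2.04 without 0 h replicate 2 and -3.45 without 48 h replicate 2. At 72 h the change was -1.25 ± 0.55 (adjusted p = 0.0835).

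Nupr1 and Chac1 lay between 3.89 and 22.5 CPM in the time-course libraries. Nupr1, a stress-induced nuclear protein gene, had 17.2 and 18.5 CPM at 0 h, 6.10 and 9.28 at 8 h, 7.99 and 8.54 at 24 h, 5.55 and 7.69 at 48 h, and 22.5 and 10.2 at 72 h. It was called lower at 8 h (-1.21 ± 0.39, adjusted p = 0.0366), 24 h (-1.11 ± 0.39, adjusted p = 0.0404) and 48 h (-1.43 ± 0.40, adjusted p = 0.0142), and each of these calls was lost without either 0 h library. Those at 8 and 24 h were also lost without either library of their own time or of 48 h, and that at 48 h without 48 h replicate 1. Chac1, which encodes a glutathione-degrading enzyme, had 11.4 and 16.0 CPM at 0 h, 13.0 and 7.16 at 8 h, 3.89 and 7.35 at 24 h, 4.74 and 5.66 at 48 h, and 18 and 7.53 at 72 h. It was called at 48 h alone (-1.39 ± 0.51, adjusted p = 0.0442), and leaving out any 1 of the 0 h or 48 h libraries ended the call. At 72 h both genes had replicate 1 above and replicate 2 below the 0 h pair, with changes of -0.13 ± 0.38 for Nupr1 (adjusted p = 0.793) and -0.10 ± 0.48 for Chac1 (adjusted p = 0.874). Without 72 h replicate 1 these were -0.81 and -0.86.

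Ddit3, which encodes the stress factor CHOP, had 13.6 and 32.0 CPM at 0 h and between 10.6 and 29.8 CPM in the treated libraries. It was called at no time, with changes between -0.61 ± 0.42 at 8 h (adjusted p = 0.276) and 0.30 ± 0.41 at 72 h (adjusted p = 0.557). The direction rested on single 0 h libraries. Without 0 h replicate 2 the changes at 8, 24 and 48 h were 0.17, 0.36 and 0.58, against -0.61, -0.41 and -0.22 with it. Without 0 h replicate 1 the 72 h change was -0.15.

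**Figure D3:**
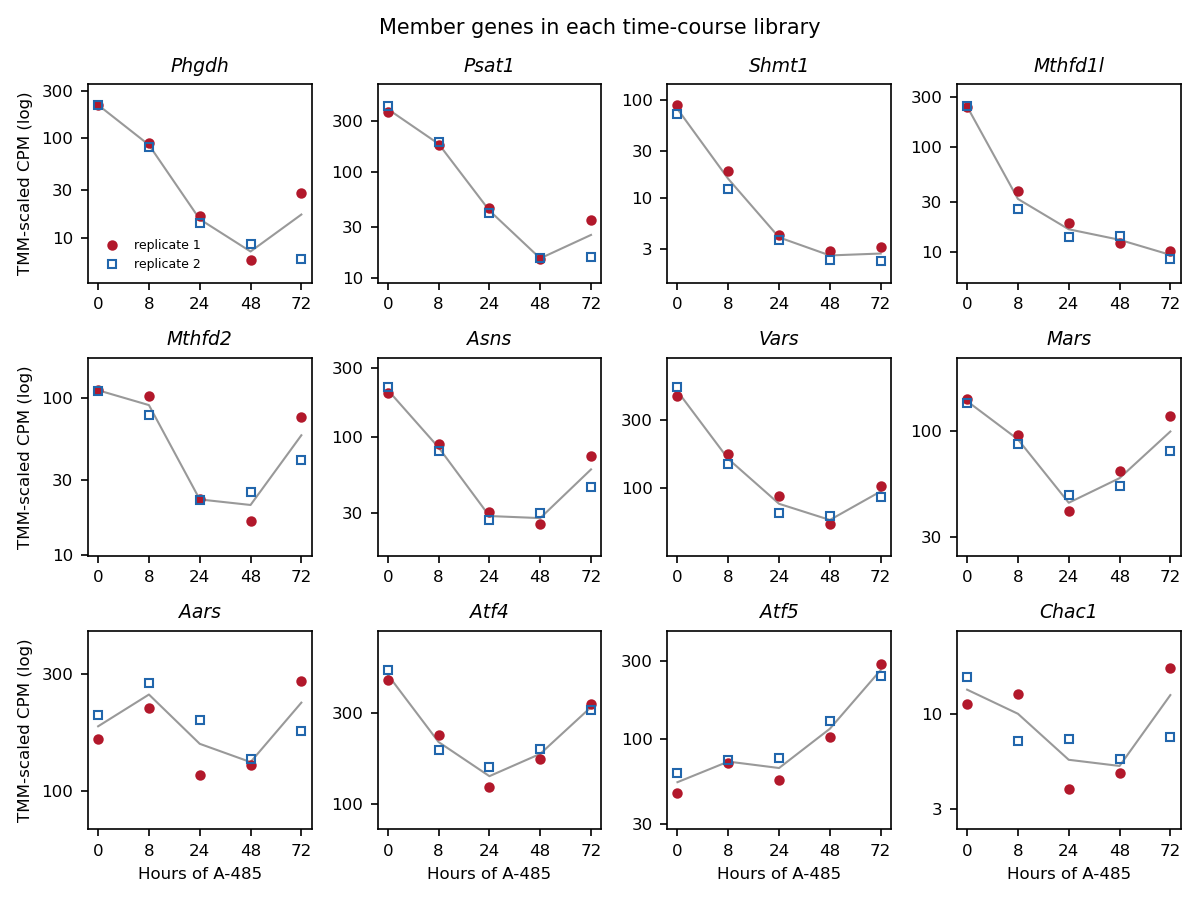
TMM-scaled CPM on a log axis for 12 of the genes in each time-course library, with circles for replicate 1, squares for replicate 2 and a line through the mean of each time. Phgdh, Psat1, Shmt1 and Mthfd1l lose most of their level by 48 h, Atf4 dips and returns toward 0 h, Atf5 climbs to 289 and 243 CPM at 72 h, and Chac1 splits by replicate at 72 h.

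Enzymes that make serine, proline and asparagine had the lowest median of the 5 roles at 24, 48 and 72 h. Of 6 tested, 4 were lower at 8 h and 6 at each of 24, 48 and 72 h, with medians of -1.20, -3.02, -3.73 and -2.67. All 6 had their lowest mean at 48 h.

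Phgdh, the first enzyme of serine synthesis from glucose, had 216 and 215 CPM at 0 h, 89.0 and 82.2 at 8 h, 16.6 and 14.2 at 24 h, 5.96 and 8.70 at 48 h, and 28.2 and 6.22 at 72 h. The treated libraries lay far below the 0 h pair, and replicate 1 of 72 h stood above its partner. Its log2 change was -1.33 ± 0.47 at 8 h (adjusted p = 0.0521), -3.80 ± 0.53 at 24 h (adjusted p = 0.000628), -4.88 ± 0.57 at 48 h (adjusted p = 0.00018) and -3.65 ± 0.53 at 72 h (adjusted p = 0.000533). Without 72 h replicate 1 the last value was -5.11 (adjusted p = 8.72e-05), and without replicate 2 it was -2.93 (0.000232).

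Psat1, the second enzyme of that route, had 365 and 416 CPM at 0 h, 178 and 189 at 8 h, 45.6 and 40.7 at 24 h, 15 and 15.5 at 48 h, and 34.9 and 15.9 at 72 h. The order of the first 4 times was kept by every library. Its changes were -1.09 ± 0.27 at 8 h (adjusted p = 0.0121), -3.18 ± 0.29 at 24 h (adjusted p = 8.35e-05), -4.68 ± 0.32 at 48 h (adjusted p = 1.43e-05) and -3.94 ± 0.30 at 72 h (adjusted p = 2.37e-05). The 8 h call ended without 0 h replicate 2 (adjusted p = 0.0788). Without 72 h replicate 1 the 72 h change was -4.62.

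Psph, the last enzyme of serine synthesis, moved less. It had 46.4 and 41.1 CPM at 0 h, 57.5 and 41.2 at 8 h, 27.1 and 28.0 at 24 h, 19.9 in both libraries at 48 h, and 26.4 and 24.5 at 72 h. The 8 h libraries overlapped those of 0 h. Psph changed by -1.14 ± 0.18 at 48 h (adjusted p = 0.000857) and -0.78 ± 0.18 at 72 h (adjusted p = 0.0056), and its call at 24 h (-0.67 ± 0.18, adjusted p = 0.013) was lost without 0 h replicate 1 (adjusted p = 0.0923) and without 24 h replicate 1 (0.051).

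Asns, asparagine synthetase and a standard ATF4 target, had 202 and 219 CPM at 0 h, 89.8 and 80.3 at 8 h, 30.7 and 26.9 at 24 h, 25.6 and 30.2 at 48 h, and 74.7 and 45.6 at 72 h. Both libraries of 72 h were above those of 48 h and below those of 8 h. The difference between 72 and 48 h was not tested. Asns changed by -1.31 ± 0.21 at 8 h (adjusted p = 0.00187), -2.87 ± 0.23 at 24 h (adjusted p = 4.74e-05), -2.92 ± 0.23 at 48 h (adjusted p = 2.48e-05) and -1.81 ± 0.21 at 72 h (adjusted p = 0.000193). Without 72 h replicate 1 the 72 h value was -2.21, and without 72 h replicate 2 it was -1.49.

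The enzymes of proline synthesis also fell. Aldh18a1, which encodes the first of them, had 175 and 172 CPM at 0 h, 88.6 and 83.2 at 8 h, 73.9 and 69.3 at 24 h, 68.0 and 67.7 at 48 h, and 99.4 and 88.5 at 72 h, with a change of -1.35 ± 0.10 at 48 h (adjusted p = 2.34e-05). Pycr1, which encodes the last, had 113 and 135 counts at 0 h (14.0 and 18.8 CPM), 21 and 37 at 8 h, 8 and 13 at 24 h, 9 and 1 at 48 h, and 12 and 11 at 72 h. Pycr1 changed by -2.31 ± 0.59 at 8 h (adjusted p = 0.0148), not called without either 0 h library (adjusted p = 0.0501 and 0.0973) or 8 h replicate 1 (0.0703), and by -3.76 ± 0.65 at 24 h (adjusted p = 0.00182). Cth, which encodes an enzyme that makes cysteine, had at most 2 counts in any time-course library and was not tested.

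Folate enzymes, which pass single carbon units from serine to nucleotides and methionine, fell as a group. Of 5, 3 were lower at 8 h and 5 at each later time, with medians of -1.21, -2.31, -2.44 and -1.99.

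Shmt1, the cytosolic enzyme that splits serine, had 89.4 and 71.4 CPM at 0 h, 18.9 and 12.3 at 8 h, 4.21 and 3.68 at 24 h, 2.84 and 2.32 at 48 h, and 3.13 and 2.27 at 72 h. Each treated library lay well below the 0 h pair. Shmt1 fell by 2.37 ± 0.25 at 8 h (adjusted p = 0.000262), by 4.95 ± 0.30 at 48 h (adjusted p = 9.66e-06) and by 4.89 ± 0.30 at 72 h (adjusted p = 1.07e-05). Its mitochondrial counterpart Shmt2 had 336 and 358 CPM at 0 h, 166 and 133 at 8 h, 74.7 and 69.7 at 24 h, 59.7 and 68.6 at 48 h, and 87.0 and 87.5 at 72 h. Shmt2 fell by 2.44 ± 0.13 at 48 h (adjusted p = 6.82e-06) and by 1.99 ± 0.13 at 72 h (adjusted p = 1.28e-05).

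Mthfd1l, a mitochondrial enzyme that makes formate, had 240 and 247 CPM at 0 h, 38.2 and 25.8 at 8 h, 19.0 and 13.9 at 24 h, 12.0 and 14.1 at 48 h, and 10.3 and 8.49 at 72 h. It had the steepest fall of the 46 genes at 8 h (-2.93 ± 0.22, adjusted p = 5.77e-05), and, unlike the other folate genes, its lowest mean was at 72 h (-4.70 ± 0.24, adjusted p = 6.22e-06).

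Mthfd2, the mitochondrial enzyme just before it, was first called lower at 24 h. Its 72 h libraries lay above those of 24 and 48 h, a difference that was not tested. Mthfd2 had 112 and 111 CPM at 0 h, 102 and 77.4 at 8 h, 22.6 and 22.4 at 24 h, 16.4 and 25.1 at 48 h, and 75.0 and 40.3 at 72 h. At 8 h the change was -0.31 ± 0.29 (adjusted p = 0.41), at 24 h -2.31 ± 0.30 (adjusted p = 0.000489) and at 72 h -0.95 ± 0.29 (adjusted p = 0.0213). The 72 h call was lost without either 0 h library (adjusted p = 0.0834 and 0.0756) and without 72 h replicate 2 (-0.57, adjusted p = 0.109), and the value was -1.47 without replicate 1. Cytosolic Mthfd1 had 104 and 89.5 CPM at 0 h, 85.5 and 74.4 at 8 h, 31.1 and 34.6 at 24 h, 32.5 and 28.7 at 48 h, and 46.2 and 28.8 at 72 h, with a change of -1.66 ± 0.22 at 48 h (adjusted p = 0.000316).

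Of 7 amino acid transporter genes, 4 were lower at 8 h and 5 at each later time, and 1 was higher at 48 and 72 h. Slc7a5, which encodes LAT1, the importer of leucine and other large amino acids, had 227 and 236 CPM at 0 h, 64.9 and 68.0 at 8 h, 47.2 and 44.6 at 24 h, 28.0 and 32.0 at 48 h, and 71.8 and 35.7 at 72 h. It changed by -2.95 ± 0.28 at 48 h (adjusted p = 5.84e-05) and -2.11 ± 0.27 at 72 h (adjusted p = 0.000267), or -2.69 without 72 h replicate 1. Slc3a2, which encodes its heavy chain CD98, had 299.5 and 338 CPM at 0 h and between 82.7 and 140 CPM in treated libraries, with -1.81 ± 0.15 at 48 h (adjusted p = 3.04e-05).

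Slc7a1, the arginine and lysine importer, had 135 and 145 CPM at 0 h, 63.4 and 62.4 at 8 h, 23.5 in both libraries at 24 h, 24.1 and 27.6 at 48 h, and 62.6 and 41.7 at 72 h. It changed by -2.58 ± 0.19 at 24 h (adjusted p = 3.78e-05) and -1.43 ± 0.18 at 72 h (adjusted p = 0.00027). Without 72 h replicate 1 the 72 h value was -1.75, and without 72 h replicate 2 it was -1.16. Slc1a5, the glutamine importer ASCT2, was lowest at 8 h, with 202 and 206 CPM at 0 h, 98.9 and 70.9 at 8 h and 106 and 139 at 72 h. Its change was -1.27 ± 0.20 at 8 h (adjusted p = 0.00153), and its 72 h call (-0.73 ± 0.19, adjusted p = 0.0114) was lost without 72 h replicate 1 (adjusted p = 0.0816) or either 0 h library. Slc7a11, the cystine importer, was scarce, with 77 and 109 counts at 0 h, 20 and 45 at 8 h, 5 and 5 at 24 h, 3 and 0 at 48 h, and 7 and 0 at 72 h. At 24 h it changed by -4.41 ± 1.00 (adjusted p = 0.0067).

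The glutamine carriers of the SNAT family did not follow. Slc38a2 had 153 and 151 CPM at 0 h, 200.1 and 158 at 8 h, 196 and 122 at 24 h, 267 and 211 at 48 h, and 288 and 255 at 72 h. It rose by 0.65 ± 0.22 at 48 h (adjusted p = 0.0339), lost without 48 h replicate 1 (adjusted p = 0.197) or either 0 h library, and by 0.83 ± 0.22 at 72 h (adjusted p = 0.0119), which leaving out 72 h replicate 1 (adjusted p = 0.0609) and leaving out 0 h replicate 2 (0.0518) each ended. Slc38a1 stayed between 218 and 291 CPM in the 10 libraries, and its 48 h change of 0.18 ± 0.11 was not called (adjusted p = 0.184).

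Most of the cytosolic synthetases were called lower from 24 h on. Of 20, 10 were lower at 8 h, 16 at 24 h, 17 at 48 h and 16 at 72 h, and 0 were higher at any of these times. Their median was -0.58, -0.98, -1.07 and -0.71, and on log2(TPM + 1) the 72 h median turned to 0.010 while that of all genes moved to 0.64. The mean level was lowest at 48 h in 14 genes, at 24 h in 5 and at 72 h in 1.

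Vars, the valine enzyme, fell most. It had 444 and 514 CPM at 0 h, 174 and 148 at 8 h, 88.4 and 67.6 at 24 h, 56.2 and 64.1 at 48 h, and 104 and 86.7 at 72 h. Every treated library was below both 0 h libraries. Its changes were -1.57 ± 0.16 at 8 h (adjusted p = 0.000251), -2.62 ± 0.17 at 24 h (adjusted p = 2.26e-05), -2.99 ± 0.18 at 48 h (adjusted p = 9.04e-06) and -2.33 ± 0.17 at 72 h (adjusted p = 1.87e-05).

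The aspartate enzyme gene Dars and the phenylalanine enzyme subunit gene Farsa dropped at once and stayed down. Dars had 391 and 382 CPM at 0 h, 155 and 156 at 8 h and between 113 and 143 CPM afterwards, with -1.32 ± 0.11 at 8 h (adjusted p = 8.02e-05) and -1.51 ± 0.11 at 72 h (adjusted p = 1.7e-05). Farsa had 199 and 183 CPM at 0 h, 81.8 and 79.9 at 8 h and between 63.1 and 72.9 CPM afterwards, with -1.24 ± 0.10 at 8 h (adjusted p = 7.01e-05) and -1.51 ± 0.10 at 72 h (adjusted p = 1.37e-05). Farsb, the other subunit of the same enzyme, moved later, with 64.3 and 66.4 CPM at 0 h, 49.5 and 52.3 at 8 h, 32.8 and 35.1 at 24 h, 33.3 and 26 at 48 h, and 33.5 and 36.7 at 72 h. Farsb was not called at 8 h (-0.36 ± 0.15, adjusted p = 0.0793) and changed by -1.14 ± 0.15 at 48 h (adjusted p = 0.000312). The difference between the subunits was not tested.

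Kars, the lysine enzyme, had 243 and 251 CPM at 0 h, 153 and 173 at 8 h, 96.4 and 118 at 24 h, 85.8 and 78.9 at 48 h, and 105 and 96.4 at 72 h. It changed by -1.58 ± 0.13 at 48 h (adjusted p = 2.79e-05). Mars, the methionine enzyme, had 143 and 137 CPM at 0 h, 95.2 and 86.9 at 8 h, 40.6 and 48.3 at 24 h, 63.6 and 53.8 at 48 h, and 119 and 80.0 at 72 h. Its 72 h libraries lay above those of 24 and 48 h, a difference that was not tested. Mars changed by -1.66 ± 0.19 at 24 h (adjusted p = 0.000276). Its calls at 8 h (-0.62 ± 0.19, adjusted p = 0.0287) and at 72 h (-0.50 ± 0.19, adjusted p = 0.0499) were each lost without either 0 h or either 8 h library. The 72 h one was also lost without 24 h replicate 2, either 48 h library or 72 h replicate 2 (-0.23, adjusted p = 0.288), and on log2(TPM + 1) the 72 h value was 0.19. Yars, the tyrosine enzyme, had 154 and 135 CPM at 0 h, 78.6 and 74.9 at 8 h, 46.6 and 62.4 at 24 h, 55.2 and 63.9 at 48 h, and 104 and 65.9 at 72 h, with -1.41 ± 0.22 at 24 h (adjusted p = 0.00117). Its calls at 8 and 72 h were lost without 0 h replicate 1 (adjusted p = 0.0756 and 0.0992) and without replicate 2 of that same time (0.0581 and 0.0912).

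Another 4 genes were lower at all 4 treated times or at all but 72 h. Eprs, which encodes a joint glutamate and proline enzyme, had 338 and 334 CPM at 0 h and between 151 and 211 CPM in treated libraries, with -1.09 ± 0.13 at 48 h (adjusted p = 0.000183). Nars, the asparagine enzyme, had 313 and 335 CPM at 0 h and between 153 and 224 CPM in treated libraries. It changed by -1.07 ± 0.10 at 24 h (adjusted p = 0.000115) and -0.64 ± 0.10 at 72 h (adjusted p = 0.000977), the 72 h value 0.067 on log2(TPM + 1). Sars, the serine enzyme, had 226 and 297 CPM at 0 h and between 129 and 174 CPM in treated libraries. It changed by -0.97 ± 0.13 at 48 h (adjusted p = 0.000364) and -0.67 ± 0.13 at 72 h (adjusted p = 0.00244), the 72 h value 0.053 on log2(TPM + 1). Iars, the isoleucine enzyme, had 185 and 182 CPM at 0 h and between 94.8 and 166 CPM in treated libraries. It changed by -0.94 ± 0.16 at 24 h (adjusted p = 0.00159) and was not called at 72 h (-0.38 ± 0.16, adjusted p = 0.0677). Its 8 h call (-0.57 ± 0.16, adjusted p = 0.0203) was lost without either 0 h library or 8 h replicate 1.

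For 4 more, the fall was called from 24 h on and not at 8 h. Gars, the glycine enzyme, had 227 and 262 CPM at 0 h, 190.3 and 175 at 8 h, 97.7 and 126 at 24 h, 105 and 99.2 at 48 h, and 157 and 118 at 72 h, with -1.25 ± 0.17 at 48 h (adjusted p = 0.000364). Tars, the threonine enzyme, had 122 and 133 CPM at 0 h and between 53.3 and 106 CPM in treated libraries. It changed by -0.26 ± 0.12 at 8 h (adjusted p = 0.102) and -1.20 ± 0.12 at 48 h (adjusted p = 7.39e-05). Lars, the leucine enzyme, had 167 and 162 CPM at 0 h and between 77.6 and 140 CPM in treated libraries. It changed by -1.05 ± 0.18 at 48 h (adjusted p = 0.00117). Hars, the histidine enzyme, had 103 and 101 CPM at 8 h, inside the 97.4 and 107 CPM of 0 h, and changed by -0.86 ± 0.15 at 48 h (adjusted p = 0.00154) and by -0.65 ± 0.15 at 72 h (adjusted p = 0.00652). The 72 h call of Hars was lost without 0 h replicate 2 (adjusted p = 0.052), and its value was 0.062 on log2(TPM + 1).

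The arginine and glutamine enzymes were first called at 48 h. Rars had 93.2 and 99.0 CPM at 0 h, 96.2 and 112 at 8 h, 68.9 and 81.5 at 24 h, 62.4 and 59.5 at 48 h, and 73.2 and 54.2 at 72 h. It changed by -0.66 ± 0.16 at 48 h (adjusted p = 0.00889) and -0.59 ± 0.16 at 72 h (adjusted p = 0.0141), values of 0.020 and 0.10 on log2(TPM + 1), and both calls were lost without 0 h replicate 2 (adjusted p = 0.0656 and 0.0825) or replicate 2 of that same time (0.0573 and 0.0944), the 72 h one also without 0 h replicate 1 (0.0521). Qars had 179 and 181 CPM at 0 h and 133 and 132 at 72 h, a change of -0.44 ± 0.09 (adjusted p = 0.00379). Its 48 h call was lost without either 0 h library (adjusted p = 0.072 and 0.0837) and without 48 h replicate 2 (0.0618). On log2(TPM + 1) Qars was called in the other direction, with 0.27 at 72 h and 0.30 at 48 h.

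Aars, Wars and Cars had no call or 1 call against 0 h. Aars, the alanine enzyme, had 163 and 204 CPM at 0 h, 219 and 277 at 8 h, 116 and 195 at 24 h, 127 and 135 at 48 h, and 283 and 176 at 72 h. It was called at no time, with changes between -0.49 ± 0.28 at 48 h (adjusted p = 0.174) and 0.43 ± 0.28 at 8 h (adjusted p = 0.248). Wars, the tryptophan enzyme, had 109 and 99.7 CPM at 0 h and between 59.5 and 118 CPM in treated libraries. It was also called at no time, and its 48 h change was -0.65 ± 0.26 (adjusted p = 0.0564). Cars, the cysteine enzyme, had 65.4 and 83.2 CPM at 0 h, 59.2 and 38.9 at 8 h, 44.2 and 33.7 at 24 h, 45.6 and 52.3 at 48 h, and 101 and 85.5 at 72 h. The 72 h libraries were the highest of its course, with a change of 0.33 ± 0.23 against 0 h (adjusted p = 0.243). The fall of Cars at 24 h (-0.93 ± 0.23, adjusted p = 0.0103) was lost on leaving out 0 h replicate 2 (adjusted p = 0.0762) and on leaving out 24 h replicate 2 (0.0612).

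Between 72 h and 8 h genes differed in both directions. Of the 46 genes, 14 were lower and 4 higher at 72 h, where 32.2% of all genes tested were called, 17.2% lower and 15.1% higher, and the median was -0.27. The higher ones were Atf4, Atf5, Sesn2 and Cars. The lower ones were Farsb, Hars, Kars, Qars, Rars, Tars and Vars among the synthetases, Psat1, Phgdh and Psph of serine synthesis, and Shmt1, Shmt2, Mthfd1 and Mthfd1l of the folate cycle. None of the 8 regulators was lower. The counts rest on single libraries: without 72 h replicate 2, 8 were lower and 6 higher, and without 72 h replicate 1, 19 were lower and 3 higher. Without 8 h replicate 2, 2 were higher.

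Genes around these pathways were counted in the same test, and their counts stand against the shares of all genes given above, 21.0, 27.1, 30.5 and 29.4% lower and 17.9, 23.2, 25.2 and 25.9% higher at 8, 24, 48 and 72 h. Of the 17 mitochondrial synthetase genes, 2, 7, 10 and 7 were lower and 2, 2, 2 and 1 higher at these times, with medians of -0.065, -0.46, -0.48 and -0.38. Hars2, the mitochondrial histidine enzyme, averaged 54.5 CPM at 72 h and 31.7 CPM at 0 h, a rise of 0.78 ± 0.12 (adjusted p = 0.000834). Iars2 averaged 68.5 CPM at 72 h and 110 CPM at 0 h, a change of -0.68 ± 0.13 (adjusted p = 0.00224). The 3 scaffold genes of the multisynthetase complex, Aimp1, Aimp2 and Eef1e1, were each lower from 24 h on, with 48 h changes of -1.40, -1.56 and -1.39.

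Subunits of eIF2 and of its exchange factor eIF2B were lower in 0, 7, 7 and 5 of 8 genes at 8, 24, 48 and 72 h. Eif2s1, the subunit that the stress kinases phosphorylate, averaged 68.8 CPM at 48 h and 149 CPM at 0 h, with a change of -1.11 ± 0.11 (adjusted p = 6.5e-05). Among 7 genes of eIF2 kinases and phosphatases, 2 were higher at each treated time, and 2, 1, 0 and 0 were lower at 8, 24, 48 and 72 h, which in so small a list is near the shares of all genes. The higher ones were Eif2ak2, which encodes the RNA-activated kinase PKR, with 0.99 ± 0.12 at 8 h (adjusted p = 0.000517), and Eif2ak1, which encodes the heme-regulated kinase, with 0.45 ± 0.11 at 8 h (adjusted p = 0.0121). Eif2ak4, which encodes the amino acid sensor GCN2, was lower at 8 h (-0.33 ± 0.11, adjusted p = 0.0456) and not called later.

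Of 18 further ATF4 targets 14 were tested, and 8, 13, 14 and 8 were lower and 0 higher at 8, 24, 48 and 72 h. Bcat1, which breaks down branched-chain amino acids, averaged 9.15 CPM at 8 h and 50.6 CPM at 0 h (-2.46 ± 0.52, adjusted p = 0.00659). Cebpb, which encodes a partner of ATF4, averaged 79.8 CPM at 8 h and 176 CPM at 0 h (-1.14 ± 0.19, adjusted p = 0.00236), and 145 CPM at 72 h, where it was not called against 0 h (-0.28 ± 0.19, adjusted p = 0.234). Nfe2l2, which encodes the stress factor NRF2, was lower at 8 h (-0.56 ± 0.16, adjusted p = 0.0218) and higher at 48 h (0.41 ± 0.16, adjusted p = 0.0485). Of 11 further folate and glycine genes tested, 2, 7, 8 and 7 were lower and 1, 1, 2 and 2 higher. Tyms, which encodes thymidylate synthase, averaged 8.08 CPM at 48 h and 57.5 CPM at 0 h (-2.83 ± 0.23, adjusted p = 2.74e-05). Of the 10 tested genes of mTORC1 amino acid sensing, 5, 5, 5 and 7 were higher and 0 lower. Gatsl2 averaged 27.7 CPM at 72 h and 0.82 CPM at 0 h, a rise of 5.10 ± 0.42 (adjusted p = 3.22e-05). Slc38a9, the lysosomal arginine sensor, rose by 1.32 ± 0.19 at 72 h (adjusted p = 0.000541), and Sesn1, a relative of Sesn2, by 0.54 ± 0.15 (adjusted p = 0.016).

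Myc, whose product also activates many of these genes, averaged 19.6 ± 11.7 CPM at 8 h and 472 ± 35.0 CPM at 0 h (SD, n = 2 each), a change of -4.59 ± 0.68 (adjusted p = 0.00124). Its part in the falls was not tested. Ep300 and Crebbp, which encode the targets of A-485, rose 2.33-fold and 3.18-fold at 8 h (adjusted p = 0.000342 and 6.23e-05).

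The single libraries ask how these genes stand in leukemia stem cells against normal progenitors and in mature leukemia cells against stem cells. They have no replicates and no test. A gene was compared where its higher library reached 10 CPM. The log2 ratios have a prior count of 5 added. Brackets give the 95% exact binomial interval from the counts without that prior count, and cover counting error only. At low counts, as for Nupr1, a ratio therefore need not lie near the middle of its bracket.

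In LSC against GMP, 40 of the 48 genes were compared. At least 2-fold higher were 2, where 10.9% of all genes compared were, and at least 2-fold lower were 7, against 8.13%. The median ratio was -0.58, against 0.025 over all genes compared, and 32 of the 40 ratios were below 0. Phgdh stood far out, with 4.97 TPM in LSC and 336 TPM in GMP, a log2 ratio of -5.81 [-6.04, -5.66]. The others lower in LSC were Slc38a1 (-1.76), Slc7a5 (-1.72), Psat1 (-1.56), Mthfd1 (-1.30), Aldh18a1 (-1.06) and Farsb (-1.02). Higher in LSC were Atf5, with 28.0 TPM in LSC and 11.1 TPM in GMP (1.55 [1.38, 1.75]), and Ddit3, with 25.2 TPM in LSC and 10.2 TPM in GMP (1.48 [1.22, 1.82]). Atf4 was at 348 TPM in LSC and 265 TPM in GMP (0.65 [0.61, 0.70]). Among the 20 synthetases the median was -0.56, and Dars, Qars and Vars were above 0.

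In mAML against LSC, 41 genes were compared, 3 were at least 2-fold higher, where 12.7% of all genes compared were, and 2 at least 2-fold lower, against 7.00%. Nupr1 had 28.9 TPM in mAML and 0.92 TPM in LSC (4.54 [4.24, 6.03]), Sesn2 had 15.8 TPM in mAML and 3.29 TPM in LSC (2.31 [2.13, 2.54]), and Slc38a1 had 33.7 TPM in mAML and 13.0 TPM in LSC (1.44 [1.38, 1.5]). Lower were Asns, with 6.33 TPM in mAML and 17.3 TPM in LSC (-1.36 [-1.56, -1.20]), and Shmt1, with 15.1 TPM in mAML and 41.1 TPM in LSC (-1.37 [-1.48, -1.26]). The synthetases had a median of -0.18, and none was 2-fold apart. In mAML 13 of 14 markers of T and NK cells were at 1 TPM or more, with a sum of 313 TPM, against 2 of 14 in LSC, where Cd3e and Cd3g were at 0. Nkg7 alone made up 153 of the 156 TPM in LSC. Mature myeloid markers summed to 89825 TPM in mAML and 19120 TPM in LSC. The part of these cells in the ratios was not tested.

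In mAML against GMP, 42 genes were compared, 3 were at least 2-fold higher, against 19.2% of all genes compared, and 14 at least 2-fold lower, against 12.5%. The higher ones were Nupr1 (4.81 [4.33, 6.92]), Sesn2 (2.81 [2.56, 3.14]) and Ddit3 (1.63 [1.37, 1.96]). Phgdh had 4.75 TPM in mAML and 336 TPM in GMP (-5.81 [-6.02, -5.66]). Lower too were Asns, Psat1, Psph and Aldh18a1, the folate genes Shmt1, Shmt2 and Mthfd1, the transporter gene Slc7a5, and the synthetase genes Eprs, Farsa, Farsb, Kars and Nars, with ratios between -1.96 for Shmt1 and -1.01 for Asns. These comparisons share libraries.

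**Figure D4:**
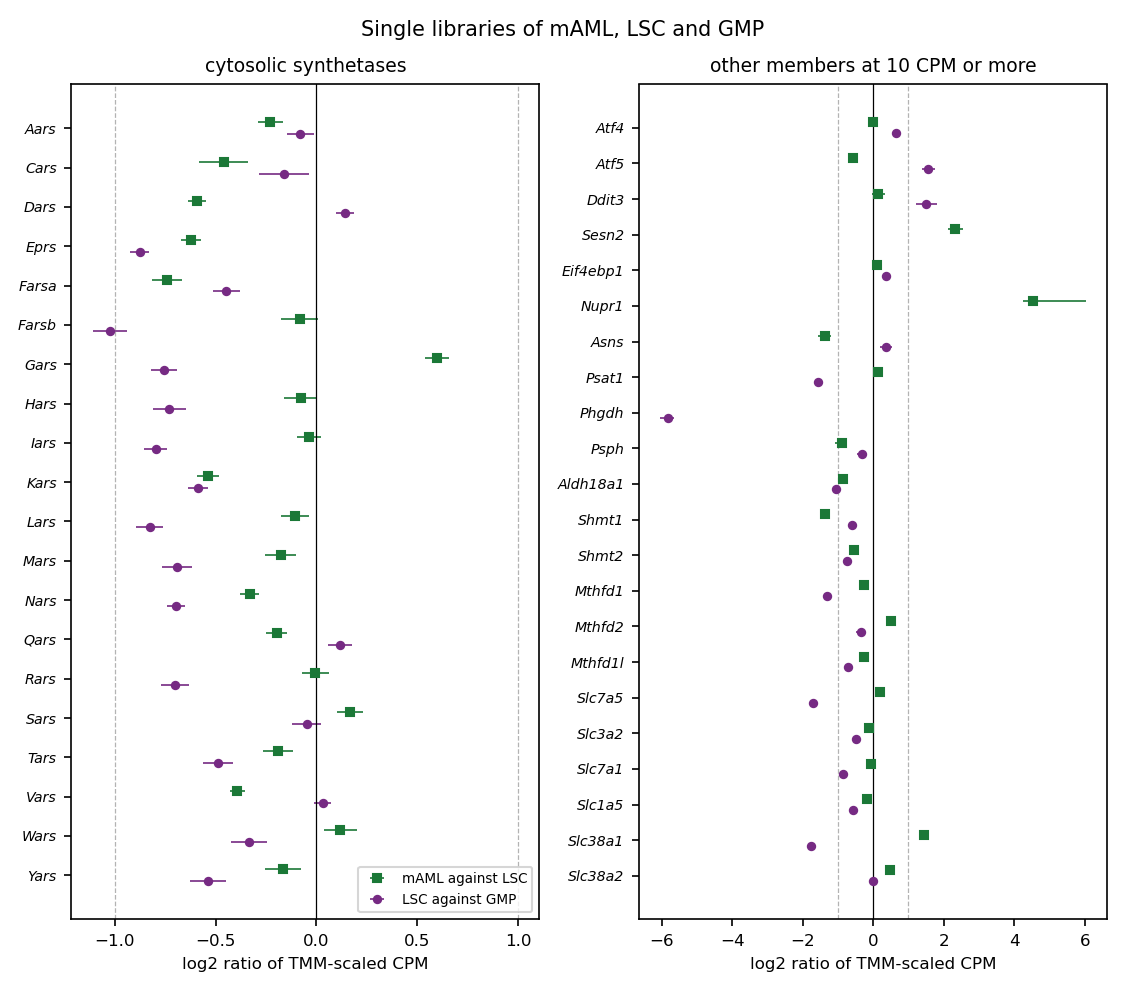
Log2 ratio of TMM-scaled CPM in mAML against LSC (squares) and in LSC against GMP (circles) for genes at 10 CPM or more in the higher library, with 95% counting intervals and dashed lines at 2-fold. In either comparison 17 of the 20 synthetases lie left of 0, Phgdh is at -5.81 in LSC against GMP, and Nupr1 at 4.54 in mAML against LSC.

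Most of the genes had a higher mean TPM in the untreated 0 h libraries than in the LSC library, while Qars, Rars, Slc38a2 and Cth had a lower one. Phgdh, Asns, Nupr1, Trib3 and Sesn2 were among those far apart. Sesn2 had 39.1 and 31.8 TPM at 0 h and 3.29 TPM in LSC. Phgdh had 150.2 and 149 TPM at 0 h and 4.97 TPM in LSC. Asns had 136 and 147 TPM at 0 h and 17.3 TPM in LSC, and Nupr1 had 53.4 and 57.6 TPM at 0 h and 0.92 TPM in LSC. Trib3 had 13.5 and 31.4 TPM at 0 h and 0.17 TPM in LSC. Atf4 was at 350 and 401 TPM at 0 h and 348 TPM in LSC, and Ddit3 at 25.1 and 59.2 TPM at 0 h and 25.2 TPM in LSC. The falls of the time course thus started from these 0 h levels. Culture, library and sequencing cannot be told apart here, so the levels are set side by side and their difference was not tested. Vldlr, a lipoprotein receptor gene that ATF4 can induce, had 11 and 4 counts at 0 h, at most 2 in any treated library, 0 in mAML, 1 in LSC and 11 in GMP. Cth had 18 counts in mAML, 42 in LSC and 10 in GMP.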

How the data were processed

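Total RNA of 13 mouse libraries was sequenced. Reads were processed by the authors with STAR, RSEM and the build mm9, per the submitters' processing notes. Versions are not given in the sources used here. For each gene the tables hold, per the file headers, an expected count, which is an estimated number of reads not scaled to depth, and TPM, scaled for length and depth by the authors. RSEM shares reads between similar genes, so close paralogs are uncertain.

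The deposited expected counts were first rounded. The A-485 libraries were fitted in edgeR 4.0.16 (R 4.3.3) with TMM scaling, filterByExpr, 1 model of all 10 libraries, a factor for time and no replicate block (common coefficient of variation 0.186). Each treated time was compared with 0 h, and 72 h with 8 h. SE is the absolute log2 change over the square root of F. CPM are TMM-scaled. The script was tested on simulated data. Single libraries were compared by log2 CPM ratios (TMM scaling, prior count 5) without a test.

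The 48 genes, the related lists and the tests were chosen with earlier results of these data known. Genes are named if called in at least 1 comparison or at least 2-fold apart in single libraries, and up to 3 of each related list by the smallest p of the joint test. Alternatives were RLE factors, library size alone, no count filter, a replicate block, removal of the trend on length, only the 2 times compared, leaving out each library, DESeq2 1.42.0, and limma 3.58.1 on log2(TPM + 1) with at least 1 TPM in 2 libraries.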

Additional observations from a re-analysis of the deposited data

Results flagged for a closer look

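Levels differed between 72 h and 8 h of A-485 in 18 of the 46 genes, by a test of the difference itself (72 h against 8 h in edgeR, adjusted p under 0.05). Of all genes tested 32.2% were called in this comparison, 15.1% higher and 17.2% lower. The 18 genes are not far above that share, so their number alone is not read as a result about this set. No vehicle was kept at either time, so time in culture and A-485 cannot be told apart. Log2 changes are 72 h over 8 h, and both libraries of 72 h lay beyond both of 8 h in each gene. On the higher side were Atf5 with 1.87 (adjusted p = 0.000304), Cars with 0.93 (0.0151), Sesn2 with 0.78 (0.00367) and Atf4 with 0.61 (0.0137). Lower in serine synthesis were Psat1 with -2.85 (0.000243), Phgdh with -2.32 (0.00879) and Psph with -0.95 (0.00418). Without 72 h replicate 1 these were -3.78 for Phgdh and -3.53 for Psat1, and without 72 h replicate 2 -1.60 and -2.39. The folate genes were Shmt1 with -2.52 (0.000407), Mthfd1l with -1.77 (0.000795), Mthfd1 with -1.09 (0.00548) and Shmt2 with -0.78 (0.0023). The synthetases were Vars with -0.75 (0.0087), Rars with -0.71 (0.0109), Kars with -0.69 (0.0036), Hars with -0.65 (0.0119), Farsb with -0.54 (0.0235), Tars with -0.48 (0.0142) and Qars with -0.35 (0.0186). Calls of Cars, Atf4, Farsb, Hars, Qars, Rars, Tars and Vars ended when 1 of the libraries of 8 h or 72 h was left out. Without 72 h replicate 2, for example, Tars had -0.36 (adjusted p = 0.105) and Vars -0.63 (0.0699).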

How the results depend on the processing

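Of 157 calls over the 5 comparisons, 156 were kept with RLE factors, 135 with library size alone, 157 with no count filter, 152 with the length trend removed, 152 with only the 2 times compared, 157 in DESeq2 and 110 in limma on log2(TPM + 1). Leaving out 1 library kept between 137 and 155, and 124 calls held without any 1 library. At 8, 24, 48 and 72 h, limma called 8, 4, 5 and 8 genes higher, and library size alone called 3 higher at 8 h, 2 at 24 h and 5 at 72 h. Limma called 17 lower at 72 h. For 72 h against 8 h, 7 were higher with library size alone, 8 with no count filter, 8 in DESeq2 and 11 in limma, and 8 were lower in limma. Without 1 library, 1 to 3 were higher at 48 h and 1 to 3 at 72 h against 0 h, and 2 to 6 were higher and 8 to 19 lower at 72 h against 8 h.

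With the replicate number as a block, 154 of 157 calls were kept and 7 genes were higher at 72 h against 8 h. Over all genes tested, the differences between replicates 1 and 2 correlated at 0.64 between 8 and 24 h. Between 72 h and these times they correlated at -0.40 and -0.41, and between other pairs of times at 0.024 to 0.15. The replicates of 8, 24 and 72 h thus shared a difference, with its sign reversed at 72 h. Whether the numbers pair the samples was not tested.

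Among values called in edgeR or in limma, the direction turned on log2(TPM + 1) for Hars at 8 h (0.44) and 72 h (0.062), Qars at 8, 24, 48 and 72 h (0.36, 0.31, 0.30 and 0.27), Rars at 48 and 72 h (0.020 and 0.10), and at 72 h for Mars (0.19), Nars (0.067), Sars (0.053) and Atf4 (0.11). Slc38a1 was at 0.46 there at 24 h, and at -0.31 at 72 h with the length trend removed. Another 25 values called in neither turned too, such as Aars at 48 h (0.19) and Iars at 72 h (0.31). The all-gene median also moved up on log2(TPM + 1), as given above, and was 0.013 at 72 h with the length trend removed. The cause of these turns was not tested.

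In the single libraries, a 1 CPM minimum gave 4 genes higher in LSC against GMP, 5 in mAML against LSC and 5 in mAML against GMP. On TPM + 1, 11 were lower in LSC against GMP and 22 in mAML against GMP. With 2 libraries a time, small changes and genes under about 10 CPM are the least certain.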
